A study of Mus musculus with 32 samples.

Results

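The ABC drug efflux transporters are 7 genes of the ATP-binding cassette (ABC) family, Abcb1a, Abcb1b, Abcc1, Abcc2, Abcc3, Abcc4 and Abcg2, taken by symbol from the 53700 genes of the deposited raw count table. All 7 were present in the table and all 7 passed the filter on low counts that left 13961 genes for testing. RNA was sequenced from the kidneys of 32 male iKspCre-Pkd1del mice on a C57BL/6 background. In this line a tamoxifen-inducible Cre under the KspCad promoter, which is active in tubular epithelium, removes exons 2 to 11 of Pkd1, so that stromal, vascular and immune cells of the kidney keep the gene. The 12 mice of the PKD group received tamoxifen at 150 mg/kg on postnatal days 18 and 19 and were 95 days old. The 12 mice of the PKD + Salsalate group were also 95 days old. They received the same tamoxifen and, from postnatal day 81, food with salsalate at 2.5 g/kg for 2 weeks. The authors chose the mice of the PKD and PKD + Salsalate groups from larger groups for similarly mild cystic disease. The 8 wildtype mice carried the same alleles, received no tamoxifen and are labelled as 109 days old. Tamoxifen, age and Pkd1 deletion therefore cannot be told apart in either comparison with wildtype.

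These transporters use ATP to move drugs, conjugated metabolites and endogenous compounds out of cells. In the kidney the apical pumps, which face the tubular lumen, are P-glycoprotein (encoded in rodents by the gene pair Abcb1a and Abcb1b), Mrp2 (Abcc2), Mrp4 (Abcc4) and Bcrp (Abcg2). Mrp1 (Abcc1) and Mrp3 (Abcc3) sit in the basolateral membrane, which faces the blood. The family is best known for multidrug resistance of tumours and for handing organic anions such as urate, glucuronides and sulphates to the urine. Salsalate, a dimer of salicylate that is split into salicylate in the body, is an activator of AMP-activated protein kinase.

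Counts assigned to genes ranged from 11193136 to 109807664 per kidney. Values are given as CPM, read counts scaled to library size with TMM factors, and differences as log2 fold changes with their standard error from edgeR's quasi-likelihood test, with p-values adjusted by Benjamini-Hochberg over all genes tested and a threshold of 0.05. Pkd1 itself, counted over the whole gene, ranged from 53.1 to 86.4 CPM in wildtype, from 70.7 to 113 CPM in PKD and from 67.4 to 120 CPM in PKD + Salsalate kidneys, so that the count over all exons does not check the deletion. Wildtype libraries fell into named sets. An R closes the library name of 5 wildtype kidneys (replicates 1 to 5, called R wildtype here) and is absent from that of the other 3 (replicates 6 to 8, called non-R wildtype). The labels do not say what it stands for. No library name of a PKD or PKD + Salsalate kidney ends in R. In comparisons with R wildtype, what the R stands for therefore cannot be told apart from group. In R wildtype 73.6% to 76.4% of the aligned fragments were counted for a gene, against 80.9% to 83.1% in non-R wildtype. The share was 74.1% to 82.9% in PKD and 78.6% to 82.7% in PKD + Salsalate kidneys. At 43.8% of all genes tested the ranges of these wildtype sets did not overlap. PKD against wildtype is therefore also given against each set, and for PKD + Salsalate against wildtype and the marker lists the counts of calls are. PKD replicate 10 stood apart as well, with its 10 liver genes summing to 5467 CPM against 161 to 331 CPM in the other 31 kidneys.

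P-glycoprotein mRNA was low and came mostly from Abcb1b. The pair lies side by side on the plus strand of chromosome 5 (GRCm39, GENCODE vM39), Abcb1a (ENSMUSG00000040584) at chr5:8710022-8798575 and Abcb1b (ENSMUSG00000028970) at chr5:8847994-8916389, with 28 exons in the canonical transcript of each. Their coding sequences were identical at 87.7% of 3837 aligned positions, and the longest unbroken run they shared was 338 bases, in exons 13 and 14 of both genes. The part in exon 13 is shown because reads falling within it belong equally to both genes. It lies at chr5:8752387-8752572 in Abcb1a and at chr5:8874707-8874892 in Abcb1b.

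Abcb1a and Abcb1b, exon 13: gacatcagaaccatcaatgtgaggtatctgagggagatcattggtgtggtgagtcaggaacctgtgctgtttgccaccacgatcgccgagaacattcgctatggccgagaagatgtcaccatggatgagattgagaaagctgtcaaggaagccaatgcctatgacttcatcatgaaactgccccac

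The least alike stretch of 90 coding bases lies in exon 16 of both genes and held 61 identical bases. Reads crossing it can be told apart, and the capitals below mark the bases that differ. Abcb1a is read at chr5:8764894-8764983 and Abcb1b at chr5:8877333-8877422, both on the plus strand.

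Abcb1a, exon 16: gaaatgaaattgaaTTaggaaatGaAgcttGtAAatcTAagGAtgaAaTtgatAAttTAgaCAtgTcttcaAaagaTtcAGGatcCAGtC
Abcb1b, exon 16: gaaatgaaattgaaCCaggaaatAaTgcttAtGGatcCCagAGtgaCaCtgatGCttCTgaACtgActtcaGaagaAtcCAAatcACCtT

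Of all 100-base stretches of the canonical transcripts, 7.41% of those of Abcb1a and 8.2% of those of Abcb1b occurred in the other gene. Counting kept only reads with a unique position, so reads that lie wholly within such stretches do not stand under either gene, and the levels of both are uncertain to that extent. No stretch of 50 bases was shared between any other pair of the 7 transporters.

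Abcb1b was the transporter that differed in all 3 comparisons (plots of CPM by kidney and of fold changes). It ranged from 3.30 to 7.08 CPM in wildtype (median 4.94), from 6.94 to 15.2 CPM in PKD (median 9.24) and from 10.2 to 17.5 CPM in PKD + Salsalate kidneys (median 13.0). Of the 12 PKD kidneys, 11 lay above the highest wildtype kidney, and all 12 PKD + Salsalate kidneys did, a separation seen as higher in 4.46% of all genes tested. The mean rose from 5.13 ± 1.12 CPM (SD, n = 8) to 9.68 ± 2.33 CPM (n = 12) in PKD, a log2 fold change of 0.91 ± 0.13 (SE, adjusted p = 1.23e-06). Both wildtype sets gave the call, with 1.07 over R wildtype (adjusted p = 1.3e-06) and 0.70 over non-R wildtype (adjusted p = 0.00257). With salsalate the mean was 13.3 ± 2.07 CPM (n = 12), a log2 fold change of 0.46 ± 0.11 over PKD (1.37-fold, 95% interval 0.24 to 0.67, adjusted p = 0.0474). All 12 treated kidneys lay above the PKD median, although the ranges overlapped, with 3 PKD kidneys inside the treated range, replicates 2 (11.2 CPM), 9 (12.3 CPM) and 12 (15.2 CPM). Against wildtype the treated kidneys were higher by 1.37 ± 0.13 on the log2 scale (adjusted p = 9.47e-10).

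The call for salsalate stood close to the threshold. On omitting any 1 of the 32 kidneys, its log2 fold change lay between 0.42 and 0.53 and the adjusted p ranged from 0.0113 to 0.0875, under the threshold in 13 cases and over it in 19. The 19 kidneys were wildtype replicate 6, PKD replicates 1, 3, 4, 5, 6, 7, 8, 10 and 11, and PKD + Salsalate replicates 1, 2, 3, 4, 5, 6, 8, 9 and 12. The lowest PKD value, 6.94 CPM, was that of replicate 10, the kidney with liver transcripts, and without it the difference was 0.42 (adjusted p = 0.0702). The comparisons with wildtype and with PKD share the PKD kidneys, so the higher values in PKD and with salsalate are not independent of each other.

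Abcb1a, the other P-glycoprotein gene, ranged from 2.20 to 4.86 CPM in wildtype (median 3.24), from 3.26 to 6.55 CPM in PKD (median 4.64) and from 4.44 to 6.61 CPM in PKD + Salsalate kidneys (median 4.88). Its counts were small, between 26 and 555 per kidney. It was higher in PKD than in wildtype by 0.55 ± 0.14 on the log2 scale (adjusted p = 0.00128), and 4 of the 12 PKD kidneys exceeded the highest wildtype kidney. Over R wildtype the log2 fold change was 0.85 (adjusted p = 1.3e-05), and over non-R wildtype it was 0.20 (adjusted p = 0.32), past no threshold. With salsalate the difference from PKD was 0.098 ± 0.12 (95% interval -0.13 to 0.33, adjusted p = 0.862).

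Per kilobase of canonical transcript, a scale on which genes can be compared, Abcb1b exceeded Abcb1a in every kidney (plot of the P-glycoprotein genes). The ratio of Abcb1b to Abcb1a was 1.83 ± 0.299 in wildtype kidneys (SD, n = 8, range 1.54 to 2.34), 2.31 ± 0.549 in PKD (n = 12, range 1.69 to 3.82) and 2.92 ± 0.480 in PKD + Salsalate kidneys (n = 12, range 2.14 to 3.70). The ranges of the 3 groups overlapped, and the ratio is given as a description.

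**Figure D1:**
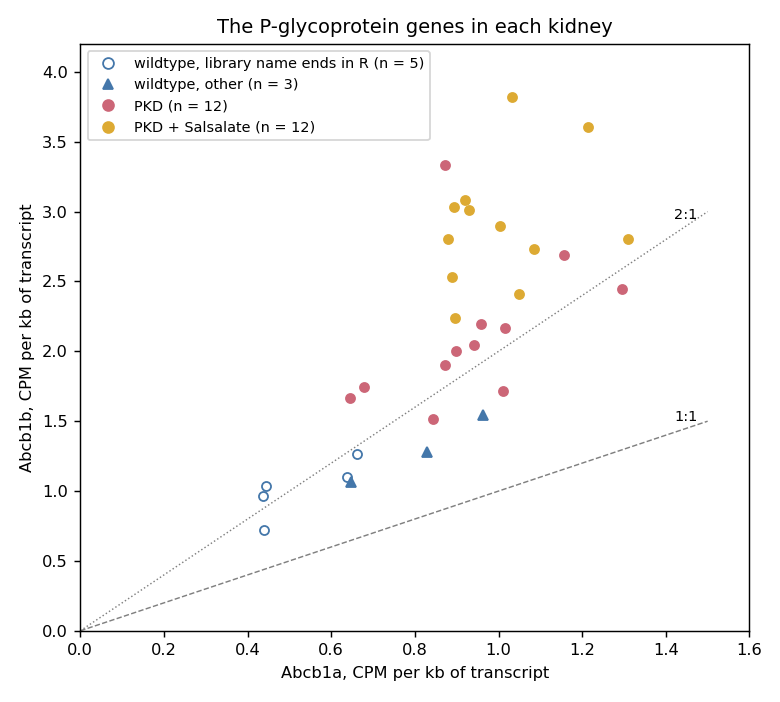
Abcb1b against Abcb1a in each of the 32 kidneys, both in CPM per kb of canonical transcript, with lines at ratios of 1:1 and 2:1. All points lie above the 1:1 line, and the PKD + Salsalate kidneys, with ratios from 2.14 to 3.70, all lie above the 2:1 line.

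RefSeq promoter windows of 300 bases (250 before and 50 after a start site, from GRCm38.p6 and placed on GRCm39 by exact match) were found for 5 of the 7 genes, not for Abcc1 and Abcc3. The windows of the P-glycoprotein pair are shown since these neighbouring, closely related genes differed in their values. The window of Abcb1a lies at chr5:8616841-8617140, with a start site 92931 bp upstream of the start of the canonical GENCODE transcript. That of Abcb1b lies at chr5:8847897-8848196, with a start site 153 bp downstream of it. Capitals mark matches, on either strand, to 5 motifs. These were TGACNNNGC, the core of the antioxidant response element, and the CCAAT box. The GC box was searched as GGGCGG. The core of the hypoxia response element was searched as ACGTG, and that of the xenobiotic response element as GCGTG.

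Abcb1a, promoter window: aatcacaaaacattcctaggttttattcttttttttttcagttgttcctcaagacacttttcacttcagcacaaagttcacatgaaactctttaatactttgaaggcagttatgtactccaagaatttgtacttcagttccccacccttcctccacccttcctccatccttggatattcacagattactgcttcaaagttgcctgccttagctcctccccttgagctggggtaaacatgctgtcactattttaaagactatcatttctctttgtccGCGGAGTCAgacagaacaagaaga
Abcb1b, promoter window: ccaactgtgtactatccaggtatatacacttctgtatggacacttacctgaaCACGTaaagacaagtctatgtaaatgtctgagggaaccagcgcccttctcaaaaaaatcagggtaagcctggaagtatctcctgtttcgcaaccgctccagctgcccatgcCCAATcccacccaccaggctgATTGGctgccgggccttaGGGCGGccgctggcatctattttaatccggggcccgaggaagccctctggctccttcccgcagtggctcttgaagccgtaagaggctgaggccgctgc

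The Abcb1a window held 1 match, to TGACNNNGC on the minus strand, a motif found in 12.4% of 32851 RefSeq windows of this length. The Abcb1b window held 2 matches to CCAAT (in 37.4% of all windows), 1 to GGGCGG (35.7%) and 1 to ACGTG (19.6%), and none to GCGTG (32.4%). No 2 of these matches overlapped in the windows shown. A match describes the letters and is not evidence of binding.

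Across the 7 transporters, 4 were called higher in PKD than in wildtype and 0 lower, when 49.1% of all genes tested were called in either direction and 24.1% as higher. The 4 were Abcb1a, Abcb1b, Abcc1 and Abcc3. The median log2 fold change was 0.33 over the 7 transporters and -0.0091 over all genes. The wildtype sets gave different counts. Over R wildtype all 7 were called higher (30.7% of all genes), and over non-R wildtype Abcb1b and Abcc3 were called higher (20.9% of all genes) and Abcc2 was called lower (19.9% of all genes).

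**Figure D2:**
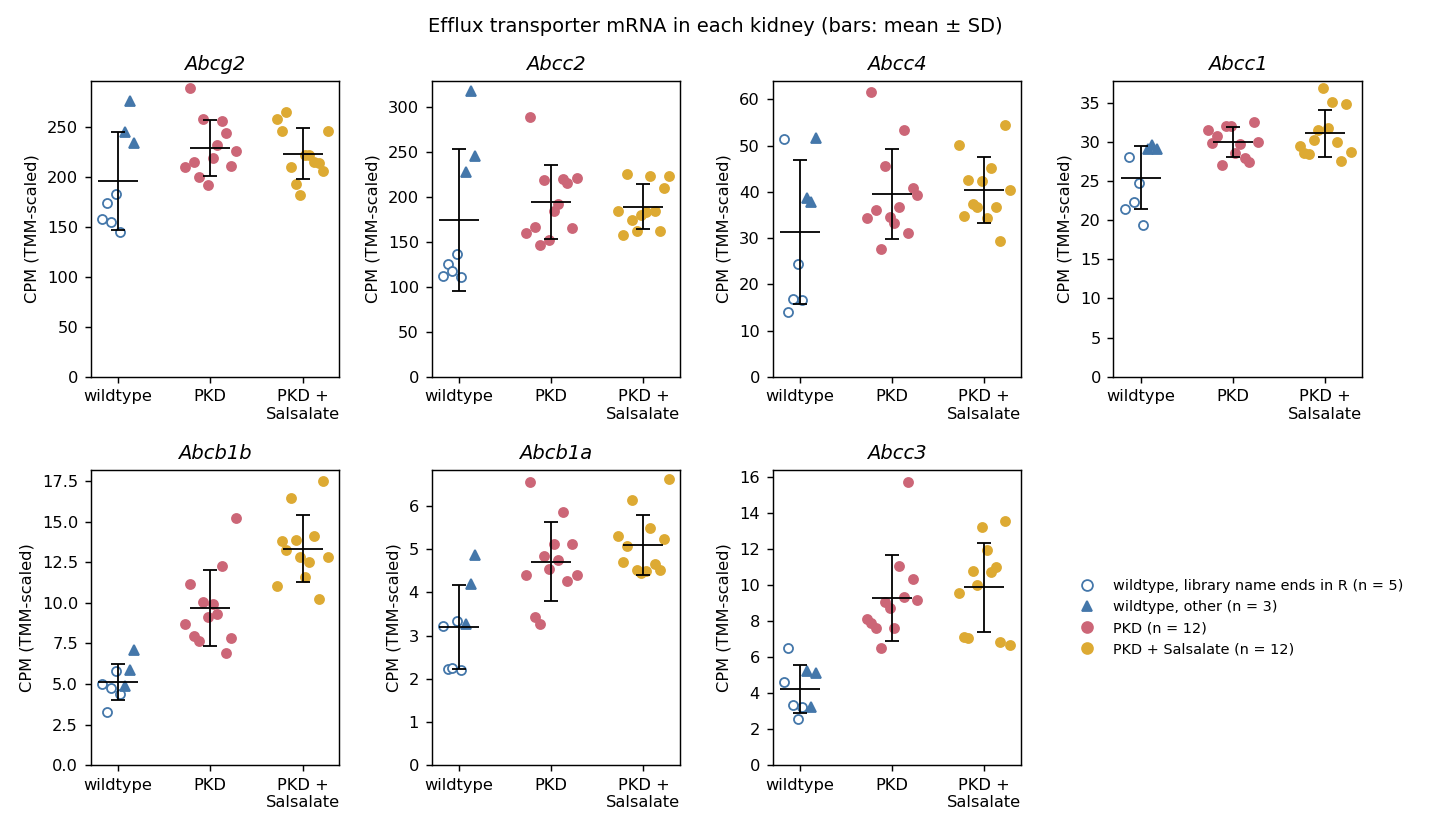
TMM-scaled CPM of each transporter in each kidney (points), with the mean and SD of each group (bars), on linear axes from 0. Open circles are the 5 R wildtype and triangles the 3 non-R wildtype kidneys. For Abcc2, Abcg2 and Abcc1 the wildtype sets do not overlap, as at 43.8% of all genes tested. For Abcb1b and Abcc3 all 12 PKD + Salsalate kidneys lie above the highest wildtype kidney, as at 4.46% of all genes tested.

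**Figure D3:**
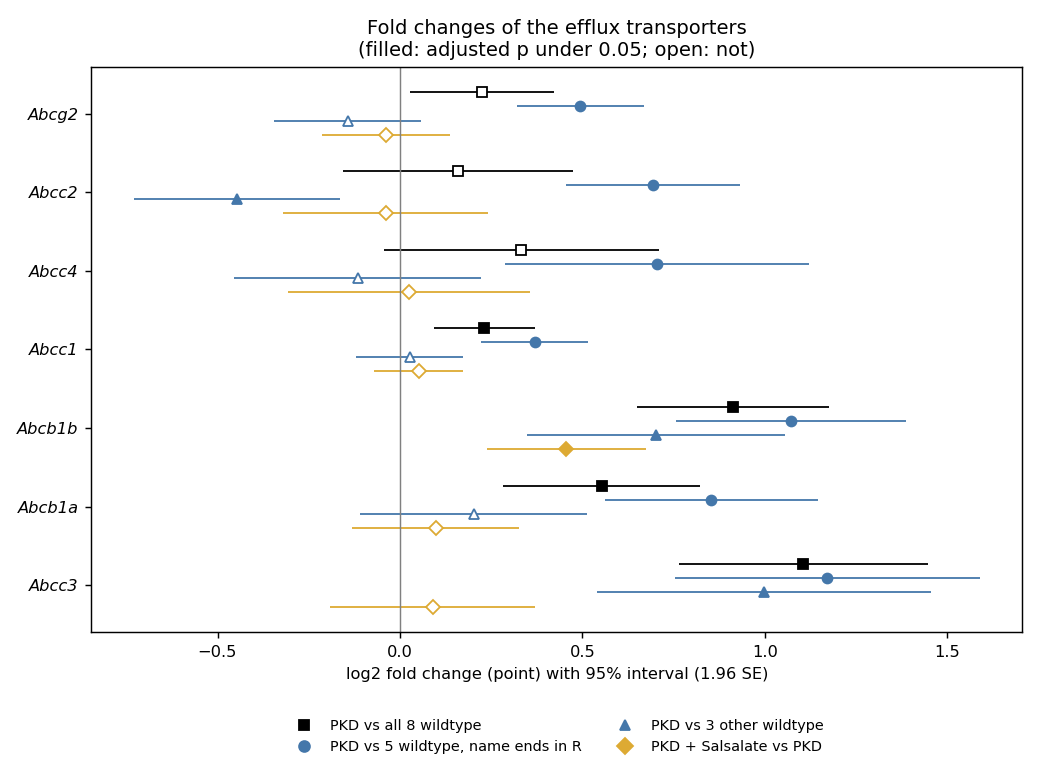
Log2 fold change of each transporter with its 95% interval, for PKD against all 8 wildtype kidneys, against the 5 R wildtype and against the 3 non-R wildtype kidneys, and for PKD + Salsalate against PKD. Filled symbols have an adjusted p under 0.05. Abcb1b and Abcc3 lie above 0 against either wildtype set, whereas Abcc2 lies at 0.69 against the first and at -0.45 against the second.

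The basolateral transporters Abcc3 and Abcc1 were both called higher in PKD. Abcc3 (Mrp3, an exporter of glucuronides and bile salts; ENSMUSG00000020865, chr11:94233874-94283823, minus strand, 31 exons) ranged from 2.60 to 6.54 CPM in wildtype (median 4.00), from 6.52 to 15.8 CPM in PKD (median 8.91) and from 6.67 to 13.6 CPM in PKD + Salsalate kidneys (median 10.4). All but 1 of the 12 PKD kidneys exceeded the highest wildtype kidney. All 12 treated kidneys did, a separation seen as higher in 4.46% of all genes tested. Its mean of 4.26 ± 1.35 CPM in wildtype (SD, n = 8) compared with 9.29 ± 2.40 CPM in PKD (n = 12), a log2 fold change of 1.11 ± 0.17 (adjusted p = 3.58e-06), the largest among the 7. It was 1.17 over R wildtype (adjusted p = 2.36e-05) and 1.00 over non-R wildtype (adjusted p = 0.00107). The highest value, 15.8 CPM, was that of PKD replicate 10, and the next was 11.1 CPM. Without that kidney, whose liver transcripts were described above, the PKD mean was 8.70 ± 1.32 CPM (n = 11) and the log2 fold change 1.02 (adjusted p = 4.62e-06). With salsalate Abcc3 differed from PKD by 0.089 ± 0.14 (95% interval -0.19 to 0.37, adjusted p = 0.901).

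Abcc1 (Mrp1, an exporter of glutathione conjugates and leukotrienes; ENSMUSG00000023088, chr16:14179311-14293601, plus strand, 31 exons) showed a smaller difference. It ranged from 19.3 to 29.6 CPM in wildtype (median 26.3), from 27.0 to 32.5 CPM in PKD (median 29.9) and from 27.6 to 36.9 CPM in PKD + Salsalate kidneys (median 30.1). The difference between PKD and wildtype was 0.23 ± 0.071 (adjusted p = 0.00733), with 8 of 12 PKD kidneys above the highest wildtype kidney. Within wildtype the R kidneys (19.3 to 28.0 CPM) lay below the non-R kidneys (29.1 to 29.6 CPM). The log2 fold change was 0.37 over R wildtype (adjusted p = 9.38e-05) and 0.026 over non-R wildtype (adjusted p = 0.8). Treated and untreated PKD kidneys differed by 0.052 ± 0.062 (95% interval -0.070 to 0.17, adjusted p = 0.865).

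The abundant apical transporters, Abcg2, Abcc2 and Abcc4, were not called by edgeR in any of the 3 comparisons over all kidneys. By limma-voom, Abcg2 was called in PKD against wildtype (0.26, adjusted p = 0.032) and Abcc4 in PKD + Salsalate against wildtype (0.49, adjusted p = 0.0392). Their direction against wildtype turned with the wildtype libraries used. Abcc2 (Mrp2, an exporter of conjugated organic anions; ENSMUSG00000025194, chr19:43770631-43829179, plus strand, 32 exons) ranged from 111 to 318 CPM in wildtype (median 131), from 146 to 288 CPM in PKD (median 188) and from 158 to 225 CPM in PKD + Salsalate kidneys (median 184). R wildtype (111 to 136 CPM) lay below every PKD kidney, and non-R wildtype (228 to 318 CPM) lay above 11 of the 12. Over all wildtype kidneys the log2 fold change was 0.16 ± 0.16 (adjusted p = 0.426). It was 0.69 over R wildtype (adjusted p = 1.47e-05) and -0.45 over non-R wildtype (adjusted p = 0.0139), a call in either direction from the same PKD kidneys.

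Abcg2 (Bcrp, which carries urate and many drugs; ENSMUSG00000029802, chr6:58561505-58672661, plus strand, 16 exons) followed the same order. It ranged from 145 to 276 CPM in wildtype (median 179), from 192 to 289 CPM in PKD (median 223) and from 183 to 265 CPM in PKD + Salsalate kidneys (median 218). R wildtype (145 to 183 CPM) lay below non-R wildtype (235 to 276 CPM). PKD exceeded wildtype by 0.22 ± 0.10 on the log2 scale without passing edgeR's test (adjusted p = 0.0642), although limma-voom called it. Leaving out wildtype replicate 6, 7 or 8, or PKD replicate 4 or 6, brought the adjusted p to between 0.00732 and 0.0493. The value was 0.49 over R wildtype (adjusted p = 1.97e-05) and -0.14 over non-R wildtype (adjusted p = 0.273).

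Abcc4 (Mrp4, an exporter of cyclic nucleotides, urate and prostaglandins; ENSMUSG00000032849, chr14:118720103-118943924, minus strand, 31 exons) was the most variable in wildtype, from 13.9 to 51.6 CPM (median 31.1). It ranged from 27.6 to 61.6 CPM in PKD (median 36.4) and from 29.3 to 54.4 CPM in PKD + Salsalate kidneys (median 38.9). PKD stood at a log2 fold change of 0.33 ± 0.19 over wildtype (adjusted p = 0.152). It passed the threshold on leaving out wildtype replicate 1 (0.46, adjusted p = 0.0478) or 8 (0.48, adjusted p = 0.038). The value was 0.71 over R wildtype (adjusted p = 0.00511) and -0.12 over non-R wildtype (adjusted p = 0.613).

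None of these 3 pumps was called with salsalate. The difference between treated and untreated PKD kidneys was -0.039 ± 0.14 for Abcc2 (95% interval -0.32 to 0.24, adjusted p = 0.967). It was -0.038 ± 0.090 for Abcg2 (95% interval -0.21 to 0.14, adjusted p = 0.939). It was 0.024 ± 0.17 for Abcc4 (95% interval -0.31 to 0.36, adjusted p = 0.985). Counting all 7 transporters, 1 was called with salsalate, Abcb1b, when 0.58% of all genes tested were called in either direction. In PKD + Salsalate against wildtype the 4 called were again Abcb1a, Abcb1b, Abcc1 and Abcc3 (44.9% of all genes called), a comparison that shares its wildtype kidneys with the first. Over R wildtype all 7 were called higher (29.7% of all genes). Over non-R wildtype 2 were called higher (18.3% of all genes), Abcb1b (1.16, adjusted p = 1.54e-05) and Abcc3 (1.09, adjusted p = 0.000569), and Abcc2 was called lower (-0.48, adjusted p = 0.01, against 16.5% of all genes). Abcb1a (0.30, adjusted p = 0.143) and Abcc1 (0.083, adjusted p = 0.408) lost their calls there.

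Markers of proximal tubule, a segment that carries these apical pumps, separated the wildtype sets in the same direction as Abcc2 and Abcg2 (plot beside proximal tubule markers). The summed CPM of 10 proximal tubule genes ranged from 9143 to 11971 in R wildtype and from 16242 to 19172 in non-R wildtype, with PKD (11299 to 14926) and PKD + Salsalate kidneys (10758 to 14197) mostly between them. Of the 10 markers, 2 were called higher and 2 lower in PKD over all wildtype kidneys (49.1% of all genes called). Over R wildtype 8 were called higher and 1 lower (59.6% of all genes called). Over non-R wildtype 0 were called higher and 6 lower (40.8% of all genes called). All 10 were detected in every kidney, the lowest value being 75.6 CPM (Slc5a12). Per 1000 CPM of these markers, Abcg2 stood at 15.8 ± 0.965 CPM in R wildtype (SD, n = 5), 14.4 ± 0.0154 in non-R wildtype (n = 3), 17.2 ± 1.82 in PKD kidneys (n = 12) and 17.5 ± 1.74 with salsalate (n = 12). On the same scale Abcc2 stood at 11.7 ± 0.677, 15.0 ± 1.58, 14.5 ± 2.76 and 14.8 ± 2.10, in the same order of groups. In whole kidneys a smaller share of a cell type and less RNA per cell cannot be told apart. The part of these markers in the results for the transporters was not tested.

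**Figure D4:**
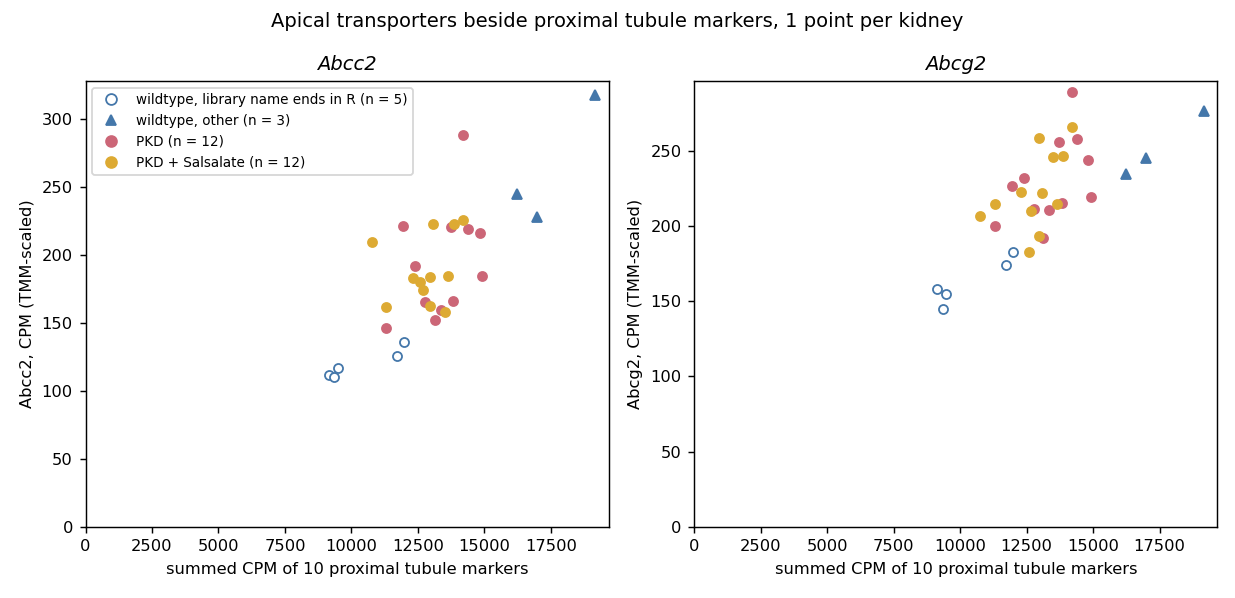
CPM of Abcc2 (left) and Abcg2 (right) in each kidney against the summed CPM of 10 proximal tubule markers, both axes linear from 0. R wildtype forms the low end (marker sums of 9143 to 11971) and non-R wildtype the high end (16242 to 19172), with the PKD and PKD + Salsalate kidneys between or beside them.

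Markers of other cells were also higher in PKD, in the same kidneys as Abcb1b and Abcc3. All 9 macrophage and leukocyte genes tested were called higher in PKD against wildtype, and their sum ranged from 147 to 235 CPM in wildtype, from 352 to 533 CPM in PKD and from 307 to 603 CPM in PKD + Salsalate kidneys. All 8 fibroblast genes were called higher, with sums of 328 to 481 CPM, 732 to 1269 CPM and 697 to 1603 CPM. All 6 markers of injured tubule were called higher, with sums of 235 to 504 CPM, 1216 to 2683 CPM and 1047 to 3517 CPM. None of these genes was called with salsalate by edgeR. Over either wildtype set all 9 leukocyte and all 6 injury genes were called higher. Of the 8 fibroblast genes 6 were over R wildtype and 7 over non-R wildtype. Of all genes tested, 24.1% were called higher over all wildtype kidneys, 30.7% over R wildtype and 20.9% over non-R wildtype. In PKD 4 of 10 endothelial markers were called higher and 3 lower, when 49.1% of all genes tested were called in either direction. Of 10 markers of the loop, distal tubule and collecting duct 0 were higher and 4 lower. Over R wildtype, when 59.6% of all genes were called, the endothelial list had 4 higher and 4 lower. The loop, distal tubule and collecting duct list had 5 higher and 4 lower there. Over non-R wildtype these lists had 4 higher and 1 lower, and 0 higher and 7 lower, when 40.8% of all genes were called. The part of these cells in the transporter results was not tested.

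Per kilobase of transcript the order of mean levels was the same in the 3 groups. Abcg2 led with 36.4 ± 9.07 CPM per kb in wildtype kidneys (SD, n = 8), 42.6 ± 5.18 in PKD and 41.5 ± 4.77 in PKD + Salsalate kidneys (n = 12 each). Abcc2 followed with 21.7 ± 9.82, 24.2 ± 5.09 and 23.6 ± 3.10 CPM per kb. Abcc4 stood at 5.22 ± 2.59, 6.57 ± 1.62 and 6.71 ± 1.18 CPM per kb, and Abcc1 at 3.68 ± 0.585, 4.34 ± 0.273 and 4.50 ± 0.437. The low end was made of Abcb1b (1.12 ± 0.246, 2.12 ± 0.509 and 2.92 ± 0.453), Abcc3 (0.811 ± 0.257, 1.77 ± 0.456 and 1.88 ± 0.471) and Abcb1a (0.632 ± 0.193, 0.932 ± 0.181 and 1.01 ± 0.139). Neighbours in this order whose ranges overlapped in every group were Abcc4 and Abcc1, Abcb1b and Abcc3, and Abcc3 and Abcb1a. The ranges of Abcg2 and Abcc2 overlapped in wildtype and PKD and not with salsalate. Those of Abcc2 and Abcc4, and of Abcc1 and Abcb1b, were apart in each of the 3 groups.

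Abcg2 and Abcc2 together therefore supplied most of the transporter mRNA counted per kilobase. Abcg2 accounted for 53.1% ± 3.39 of the sum of the 7 in wildtype (SD, n = 8), 51.8% ± 1.76 in untreated PKD (n = 12) and 50.5% ± 3.66 with salsalate (n = 12). Abcb1b accounted for 1.68% ± 0.381, 2.57% ± 0.511 and 3.57% ± 0.616 of it. The sum itself was 69.5 ± 21.1 CPM per kb in wildtype, 82.5 ± 11.9 in PKD and 82.0 ± 6.96 in PKD + Salsalate kidneys, and within wildtype it was 54.9 ± 5.08 in the R kidneys (n = 5) and 93.9 ± 9.01 in the non-R kidneys (n = 3).

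Among the transporters, kidneys that deviated from the mean of their set tended to do so together for some pairs only. Deviations were taken on the log2 CPM scale from the means of 4 sets (the wildtype sets, PKD and PKD + Salsalate) over the 32 kidneys, which share library preparation and depth differences, and the r values are descriptions. Abcc2 and Abcg2 had the highest Pearson's r among the 21 pairs (0.73), followed by Abcb1a and Abcc4 (0.68). Abcb1a and Abcb1b had r = 0.53, and Abcc3 had its highest r with Abcc1 (0.46). The lowest was that of Abcc3 and Abcg2 (-0.21).

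Over the 13960 other genes, those most like each transporter were found by the same measure, and up to 2 are named for each. For Abcb1a they were Cyp2c23 (r = 0.84), an epoxygenase of arachidonic acid, and Slc22a8 (0.78), the organic anion transporter Oat3 and also a proximal tubule marker above. For Abcc4 they were Stra6 (0.85), a retinol transporter, and Slc13a1 (0.83), a sulphate transporter. For Abcc2 they were Lclat1 (0.86) and Zdhhc9 (0.86), and for Abcg2 Gfm1 (0.87) and Mcoln1 (0.86). For Abcb1b the r values were lower, with Vps35l at 0.68. Abcc1 was nearest to Plxna3 (0.83) and Agrn (0.79), and Abcc3 to C4b (0.74), a complement component, and Inf2 (0.74).

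The rest of the ABC family gave a mixed picture in PKD (plot of ABC family genes). The table held 46 other ABC genes, of which 31 passed the filter, and 8 of these were called higher and 4 lower in PKD than in wildtype, with a median log2 fold change of 0.017, when 49.1% of all genes tested were called. The balance turned with the wildtype set. Over R wildtype 14 were called higher and 5 lower (median 0.23), when 30.7% of all genes were called higher and 28.9% lower. Over non-R wildtype 7 were called higher and 11 lower (median -0.096), when 20.9% of all genes were called higher and 19.9% lower. Of the genes named here, all kept their call over both sets except Tap2, not called over non-R wildtype (0.16, adjusted p = 0.229), and Abcb9, not called over R wildtype (-0.19, adjusted p = 0.106). Of the 7 other plasma membrane transporters of the ABCB, ABCC and ABCG subfamilies tested, 4 were called higher (24.1% of all genes) and 0 lower. Over R wildtype 4 were called higher and 0 lower, and over non-R wildtype 4 higher and 1 lower, not all of them the same genes. The largest difference was that of Cftr, a chloride channel known for cyst fluid secretion, at 1.94 ± 0.791 CPM in wildtype (SD, n = 8) and 5.87 ± 1.38 CPM in PKD (n = 12; log2 fold change 1.55, adjusted p = 4.42e-08). The next was Abcg1, an exporter of cholesterol (0.79, adjusted p = 6.85e-06).

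Among 11 ABCA genes, which carry lipids, 2 were called higher and 1 lower (49.1% of all genes called). Over R wildtype 6 were higher and 3 lower (59.6% of all genes called). Over non-R wildtype 2 were higher and 3 lower (40.8% of all genes called). The shares of all genes are the same for the lists that follow. Abca1, which loads cholesterol onto apolipoproteins, stood at 18.5 ± 6.20 CPM in wildtype and 47.7 ± 8.69 CPM in PKD (log2 fold change 1.35, adjusted p = 9.76e-09). Abca9 was higher by 0.54 (adjusted p = 0.000606), and Abca4 was lower, at -0.67 (adjusted p = 1.46e-05). Of 9 transporters of organelles (4 higher and 1 lower over R wildtype, 1 higher and 6 lower over non-R wildtype), 2 were called higher over all wildtype kidneys, among them Tap2 (0.37, adjusted p = 0.000681), part of the peptide transporter for antigen presentation. The 2 called lower were Abcd4 (-0.36, adjusted p = 0.000333), of lysosomal cobalamin export, and Abcb9 (-0.29, adjusted p = 0.00616). Of the 4 ABCE and ABCF genes, which encode no transporters, 1 was called, Abcf3 (-0.31, adjusted p = 2.9e-07).

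With salsalate 0 of these 31 genes were called by edgeR, DESeq2 or limma-voom, with 2 at an unadjusted p under 0.05 by edgeR. Of the 15 ABC genes that failed the filter, 4 that export bile components in liver had their highest value in PKD replicate 10, which held 223 of the 240 counts of Abcb11, 181 of 302 of Abcg5, 189 of 445 of Abcb4 and 96 of 504 of Abcg8. Abcb11, the bile salt export pump, had 17.6 CPM there and at most 0.127 CPM in the other 31 kidneys. Abcb4, the phospholipid exporter of bile, had 14.9 CPM there and at most 0.915 CPM elsewhere. Abcg5 and Abcg8, which form the sterol exporter, had 14.3 and 7.57 CPM there and at most 0.370 and 1.08 CPM elsewhere. Of the 7 drug efflux transporters, Abcc3 had its highest value in this kidney.

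**Figure D5:**
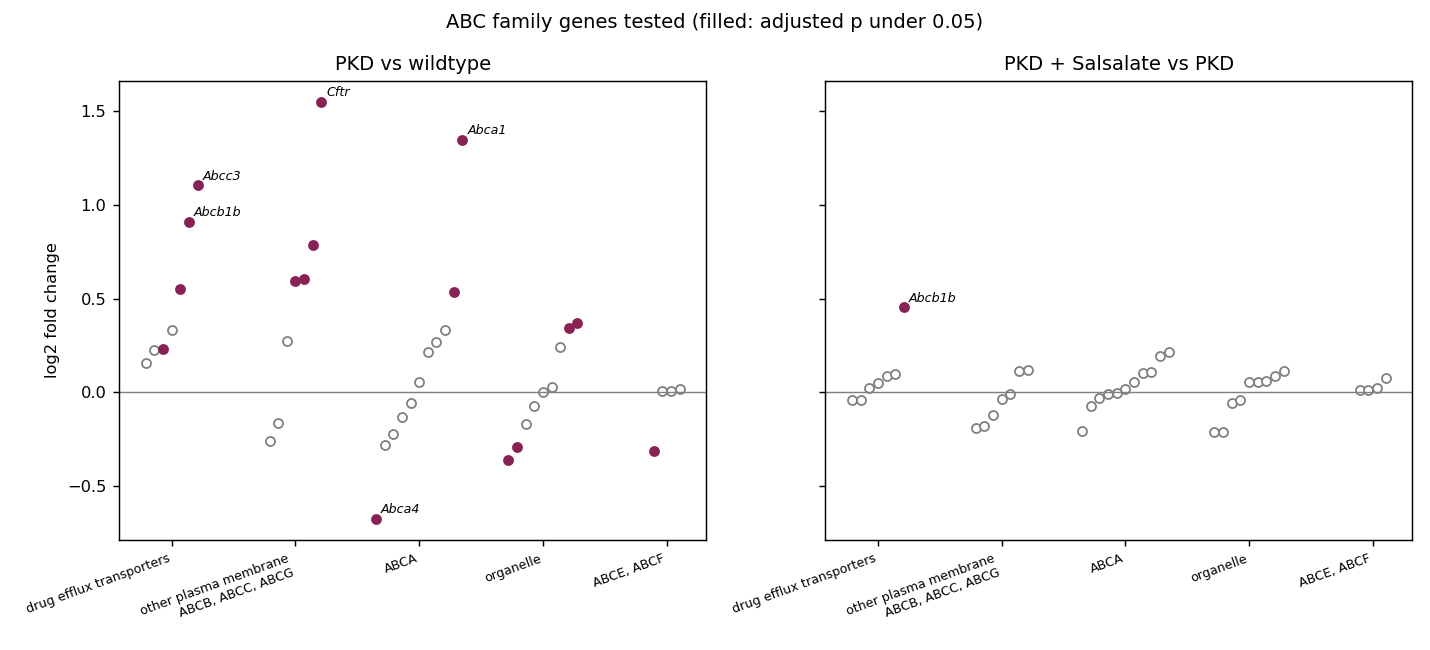
Log2 fold changes of the 7 drug efflux transporters and the 31 other ABC genes tested, by group, in PKD against wildtype (left) and in PKD + Salsalate against PKD (right). Filled points have an adjusted p under 0.05. On the left 12 of the 31 other genes are filled, with Cftr at 1.55 and Abca1 at 1.35, and on the right only Abcb1b, at 0.46.

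Of 14 nuclear receptors and transcription factors known to act on efflux pump genes, 5 were called higher and 3 lower in PKD, a share near the 49.1% of all genes called. Over R wildtype 6 were higher and 3 lower (59.6% of all genes called), and over non-R wildtype 3 higher and 4 lower (40.8% of all genes called). Nr1i2 encodes the pregnane X receptor, which senses drugs and switches on P-glycoprotein and Mrp genes. It stood at 6.61 ± 2.73 CPM in wildtype (SD, n = 8) and 9.23 ± 1.08 CPM in PKD (n = 12), with a log2 fold change of 0.48 (adjusted p = 0.00968). Trp53 was higher by 0.34 (adjusted p = 7.43e-05). Rxra, the partner of many nuclear receptors, stood at -0.33 (adjusted p = 0.000871), and Ppara, of fatty acid oxidation, at -0.31 (adjusted p = 0.00645). Of these 4 named genes only Rxra was called over both wildtype sets. Over non-R wildtype the adjusted p was 0.231 for Nr1i2, 0.0782 for Trp53 and 0.0795 for Ppara. None of the 14 was called with salsalate by edgeR.

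The apical pumps are held at the membrane by PDZ scaffolds and ERM proteins. Of 7 such genes 2 were called higher and 1 lower in PKD (49.1% of all genes called). Over either wildtype set 2 were higher and 3 lower (59.6% of all genes called over R wildtype, 40.8% over non-R wildtype). Nherf1, though, was higher over R wildtype (0.42, adjusted p = 0.000211) and lower over non-R wildtype (-0.40, adjusted p = 0.00245). Nherf1 is named outside the rule, after its values were seen. Pdzk1ip1, which binds the scaffold Pdzk1, was higher by 0.39 (adjusted p = 5.38e-05), and Msn, the ERM protein moesin, by 0.35 (adjusted p = 0.0202). Nherf2, a PDZ scaffold, stood at 103 ± 25.4 CPM in wildtype and 68.2 ± 8.95 CPM in PKD (-0.59, adjusted p = 1.37e-05). Msn was not called over R wildtype (0.087, adjusted p = 0.479), and the other two were called over both sets. None of the 7 was called with salsalate by edgeR.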

How the data were processed

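Kidney RNA of 8 wildtype, 12 PKD and 12 PKD + Salsalate mice was sequenced by the authors from poly(A)-selected, strand-specific libraries. The authors trimmed reads with cutadapt 2.10, aligned them to GRCm39 with STAR 2.7.5a and counted unique, strand-matched reads per gene with HTSeq 0.12.4, and deposited raw counts. Summary lines of the counter (reads with no gene, not unique or ambiguous) were left out of library sizes. Counts ranged from 11193136 to 109807664 per kidney, and counts of the transporters from 26 upwards, the lowest being that of Abcb1a in a wildtype kidney.

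Gene symbols and positions came from GENCODE vM39 on GRCm39 (52610 of 53700 gene IDs matched), and the level per kilobase used the length of the canonical transcript. The filter asked for log2 CPM above 1 in 25% or more of 32 libraries and left 13961 genes, which were scaled by TMM and fitted in edgeR 4.0.16 (R 4.3.3) with the 3 groups in 1 quasi-likelihood model. P-values were 2-sided and adjusted by Benjamini-Hochberg over all genes tested. The fit was checked on simulated counts. The standard error was the log2 fold change divided by the square root of F, and 95% intervals were computed from it. DESeq2 1.42.0, limma-voom (limma 3.58.1), DESeq2 size factors, other filters, a fit of only the compared groups, a replicate block, each kidney left out and each set of wildtype libraries were alternatives. No libraries agreed within sampling noise. The members and lists were chosen with earlier results of these data known. All 7 transporters were named, and from each other list the 2 called genes with the largest positive and the 2 with the largest negative log2 fold change. In addition, the liver ABC genes were named after their values were seen. The labels do not say more of litters or batches, so p-values measure the spread between these kidneys.

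Antisense partners overlap 5 of the 7 genes. Those in the count table held 14 (Gm42686, at Abcb1a) and 29 counts (Gm5106, at Abcb1b) over all kidneys. Protein sequences were not analysed here. Some genes that the naming rule would give are not reported here.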

Additional observations from a re-analysis of the deposited data

How the results depend on the processing

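Among single transporters, 169 of 189 values under another normalization, test, filter, sample set or block kept their direction and their side of the threshold. The 6 that turned direction came with the 3 wildtype libraries whose names do not end in R. There the log2 fold changes of Abcc2, Abcc4 and Abcg2 were -0.45, -0.12 and -0.14 in PKD and -0.48, -0.088 and -0.18 in PKD + Salsalate against wildtype. Leaving out 1 kidney turned the sign of Abcc2 (range -0.071 to 0.026, once) and Abcc4 (range -0.017 to 0.10, in 4 cases) in PKD + Salsalate against PKD, values near 0. The turned values were 0.026 for Abcc2 and -0.013, -0.0029, -0.0077 and -0.017 for Abcc4. The cause was not tested.

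With the wildtype libraries ending in R alone, 7 transporters were called in PKD against wildtype, when 59.6% of all genes were. In PKD + Salsalate against wildtype 7 were called, when 58% of all genes were. Of the 31 other ABC genes tested, 19 were called in PKD. The count with salsalate went from 1 to 0 without the low-count filter (Abcb1b, adjusted p = 0.0579) and with the replicate block (adjusted p = 0.0624). Without the filter 1 other ABC gene was called lower with salsalate, Abcb11 (adjusted p = 0.032), whose counts came mainly from PKD replicate 10. Leaving out 1 kidney gave 4 to 6, 0 to 1 and 4 to 5 transporters called in PKD against wildtype, PKD + Salsalate against PKD and PKD + Salsalate against wildtype, and 11 to 14, 0 to 0 and 10 to 13 other ABC genes.

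Same-numbered kidneys showed no sign of pairing: 8 of 28 same-number pairs had r over 0.1 (range -0.55 to 0.47), and 1 of 12 PKD kidneys correlated best with its own number. Such correlations cannot establish that pairing was absent, since shared litters or processing need not give a positive r. With the replicate block the calls in PKD against wildtype were 4 transporters and 12 other ABC genes (41.8% of all genes called). In PKD + Salsalate against wildtype they were 4 and 9 (38.6% of all genes called).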
